A study of Mus musculus with 12 samples.

Results

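*Foxo1*, *Foxo3*, *Pik3ip1*, *Pik3r1*, *Inpp4b*, *Sesn1*, *Sesn3*, *Ddit4* and *Tsc1* encode FOXO transcription factors and brakes on the PI3K and mTOR pathway, and were chosen by name as 9 of the 24439 genes listed in each library. All 9 were above 1 TPM in at least 1 library and were among the 12442 genes tested. TPM is a length-corrected share of all transcripts of a library. The levels in TPM below were then scaled so that all libraries have the same upper quartile, so they are no longer shares. RNA-Seq gave 12 libraries of cultured CD4 T blast cells (TB) from the spleen of C57BL/6 C42 mice. This line was back-crossed to C57BL/6J and carries a fragment of the human *IL3/CSF2* locus as a transgene in all groups. CD4 cells were purified with magnetic beads, activated with 2 µg/ml of the lectin concanavalin A (ConA) for 40 h and kept in 50 U/ml IL-2, for 30 h by the methods and for 2 days by the labels. TB IL-2 cells stayed in IL-2, and TB IL-2nil cells were kept without it for a further 16 h. TB+ IL-2 and TB+ IL-2nil cells were cultured in the same 2 ways and then restimulated for 2 h. For this, 20 ng/ml of the phorbol ester PMA and 2 µM of the calcium ionophore A23187 (PMA/I) were used. Whether libraries of different groups share a culture is not given. Each group has 3 libraries. Nothing in the labels or the methods says that they came from separate animals, so the P-values measure the spread between these libraries, which may be technical.

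IL-2 signals in T cells through STAT5 and through PI3K, which makes the lipid that recruits the kinase AKT. AKT phosphorylates FOXO factors, which then leave the nucleus and stop driving genes of quiescence and of T cell homing, and it inhibits the TSC complex, which lets the GTPase RHEB switch on mTORC1, the kinase complex of cell growth. PIK3IP1, the p85 subunit of PI3K and INPP4B act on the lipid step, the sestrins and REDD1 (encoded by *Ddit4*) act ahead of mTORC1, and TSC1 holds the TSC complex together. Several of these brakes are themselves known targets of FOXO factors or of p53 in other cells.

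The labels of 2 libraries go against the supplementary table of differentially expressed genes that came with the paper. There, the column of TB IL-2nil replicate 3 holds the values of the library labelled TB+ IL-2 replicate 3, with 98.4% of 1391 genes equal within 0.1%, and the column of TB+ IL-2 replicate 3 holds those of the library labelled TB IL-2nil replicate 3, with 99.9% equal. Each of the other 10 columns was met by the library of its own label at 97.1% or more. For this match the deposited values were first quantile-normalized, which gives all libraries the same distribution of values. Of TPM or FPKM, with or without the filter, the input that matched best was used. The main fit below instead scales by the upper quartile, which the methods of the paper name. The library labelled TB IL-2nil replicate 3 had an FPKM of 1368 for *Il2*, a gene induced by PMA/I, and the library labelled TB+ IL-2 replicate 3 had 0.29. All other libraries labelled with PMA/I had an *Il2* FPKM from 1095 to 2374, and all others labelled without it had 1.18 or less. Below, each of these 2 libraries is placed in the group of the other, as in that table, and called replicate 3 of that group. Counts and the calls they change with both libraries left out, and with the labels as deposited, are given beside the results of each comparison.

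The libraries differed in relative depth by 3.05 times, and TB IL-2nil replicate 2 was the shallowest. The summed level of the 4 CD4 T cell markers *Cd3d*, *Cd3e*, *Cd3g* and *Cd4* also moved with the groups, without overlap. It was 1068 to 1097 TPM in TB IL-2, 1615 to 1798 in TB IL-2nil, 906.5 to 1015 in TB+ IL-2 and 1160 to 1409 in TB+ IL-2nil. Of the NK cell markers, *Ncr1* was listed at 0 in all libraries, while *Klrb1c* and *Klre1* reached at most 0.303 and 0.181 TPM. The summed level of the 3 B cell markers *Cd79a*, *Cd79b* and *Ms4a1* was low and moved with the groups too, from 5.05 to 9.74 TPM in TB IL-2, 20.4 to 26.6 in TB IL-2nil, 2.09 to 2.81 in TB+ IL-2 and 4.74 to 12.1 in TB+ IL-2nil. The summed level of the CD8 T cell markers *Cd8a* and *Cd8b1* overlapped between all groups. It was 6.91 to 31.9 TPM in TB IL-2, 14 to 22.1 in TB IL-2nil, 7.27 to 29.5 in TB+ IL-2 and 8.64 to 22 in TB+ IL-2nil. The summed level of the myeloid markers was at most 4.88 TPM in any library. The part of any of these marker sums in the results below was not tested. In bulk cultures, fewer cells that express a gene and less RNA of it per cell cannot be told apart.

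The promoters of *Pik3ip1*, *Sesn1* and *Sesn3*, the 3 genes with the largest rise on IL-2 withdrawal below, are shown to compare their CpG content. The sequences are the 100 bases just before the start of transcription, 5′ to 3′ on the strand of the gene, from RefSeq on GRCm38.p6, with each CG in capitals. They lie at chr11:3330631-3330730 for *Pik3ip1*, chr10:41810474-41810573 for *Sesn1* and chr9:14276201-14276300 for *Sesn3*, all on the plus strand.
Pik3ip1: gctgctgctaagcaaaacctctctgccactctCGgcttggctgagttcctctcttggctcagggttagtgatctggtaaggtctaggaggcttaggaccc
Sesn1: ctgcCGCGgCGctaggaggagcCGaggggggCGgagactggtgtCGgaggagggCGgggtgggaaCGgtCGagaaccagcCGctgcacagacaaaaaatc
Sesn3: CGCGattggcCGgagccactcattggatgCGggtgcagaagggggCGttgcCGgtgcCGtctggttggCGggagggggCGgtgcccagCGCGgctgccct
The *Pik3ip1* stretch holds 1 CG, that of *Sesn1* 10 and that of *Sesn3* 11. All 9 genes had a RefSeq promoter window from 250 bases before to 50 after the start, in 11 windows, since *Pik3r1* and *Sesn1* have a second start. These windows held 6 to 35 CG and 43.7% to 75.7% G or C, against medians of 7 CG and 52.7% over 32851 promoters.

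The windows were searched on both strands for the FOXO motif TGTTTAC, the STAT motif TTCNNNGAA and the AP-1 motif TGANTCA. The FOXO motif was found in 1 of the 11 windows, in *Sesn1*, with its first base at position 23 after the start, and in 3.65% of all promoters. It is shown in capitals in the 30 bases at chr10:41810585-41810614 of the same build, since *Sesn1* had the rise with the lowest adjusted P below.
Sesn1 site: gaaccttctacTGTTTACcagccttttggg
The STAT and AP-1 motifs were in 0 of the 11 windows, against 8.3% and 7.81% of all promoters. A match of letters is not a bound site, and sites farther away were not searched.

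The first question was how the level of each gene stood in the 4 conditions. *Pik3ip1* had the widest range of the 9 genes, with a mean 91.5 times higher in the highest group (TB IL-2nil) than in the lowest (TB+ IL-2). The same ratio was 9.69 for *Sesn1*, 7.97 for *Ddit4*, 6.83 for *Pik3r1*, 4.61 for *Sesn3*, 4.01 for *Foxo3*, 2.52 for *Inpp4b*, 2.21 for *Foxo1* and 2.03 for *Tsc1*. The ratio for *Pik3ip1* rests on TB+ IL-2 levels of 0.891, 1.85 and 1.51 TPM, near the filter of 1 TPM, so its size is uncertain. On the log2(TPM + 1) scale of the fit, its difference between these groups came to 54.3 times. TB IL-2nil was the group with the highest mean for 7 of the 9 genes, the exceptions being *Foxo1* (TB+ IL-2nil) and *Ddit4* (TB IL-2). TB+ IL-2 was the lowest group for 7 genes, the exceptions being *Inpp4b* and *Ddit4*, which were lowest in TB+ IL-2nil. The share of all genes with the same highest or lowest group was not counted. Between these 2 groups, 8 of the 9 genes were lower in every TB+ IL-2 library than in every TB IL-2nil library, against 41.9% of all genes. This pair was picked from the means of the same 9 genes, so the share of all genes is not a like background, and no conclusion is drawn from it. Both groups also hold a library placed against its label. With the labels as deposited, the 2 groups overlapped for all 9 genes, and 0.9% of all genes were lower without overlap.

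**Figure D1:**
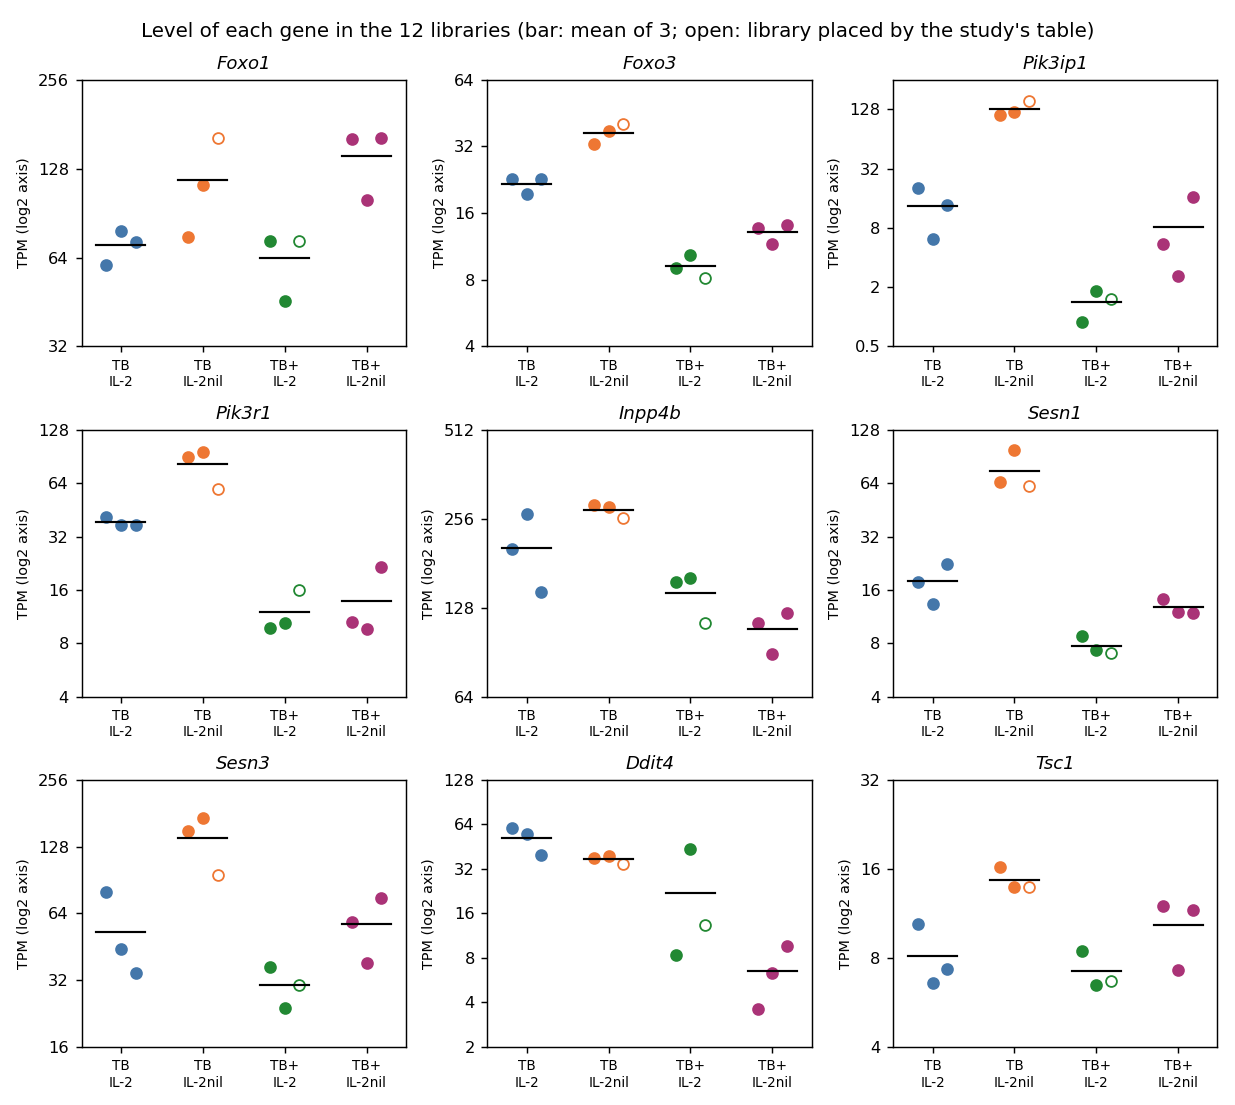
Level of each gene in TPM after scaling to a common upper quartile (log2 axis, a range of its own for each gene) in the 12 libraries by group, with the mean of 3 libraries as a bar and the 2 libraries placed against their label as open circles. In 7 panels TB IL-2nil is the highest group, and *Pik3ip1* spans the widest range, from 0.891 to 155.4 TPM.

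*Foxo1* encodes the FOXO factor that keeps naive T cells quiescent and in circulation, at chromosome 3, 52072259 to 52154031, plus strand (positions are those of GENCODE M1 on mm9 throughout). Its level was 60.5, 79.0 and 72.2 TPM in the 3 TB IL-2 libraries and 75.2, 113.1 and 162.7 TPM in TB IL-2nil, in the order of replicates 1 to 3 as throughout. In TB+ IL-2 it was 72.8, 45.6 and 73.1 TPM, and in TB+ IL-2nil 161.2, 99.9 and 162.4 TPM. The groups with and without IL-2 overlapped before restimulation and did not overlap after it. No pair of neighbours in the order TB+ IL-2, TB IL-2, TB IL-2nil, TB+ IL-2nil differed beyond the spread. The 3 highest libraries were all from the IL-2nil groups as placed, but the highest, at 162.7 TPM, was labelled TB+ IL-2 replicate 3.

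*Foxo3* encodes a related factor that shares target genes with FOXO1, on chromosome 10 from 41901647 to 41996561 (minus strand). It stood at 22.8, 19.5 and 22.7 TPM in TB IL-2 and at 32.7, 37.4 and 40.6 TPM in TB IL-2nil. After PMA/I it was at 9.0, 10.4 and 8.18 TPM with IL-2 and at 13.7, 11.6 and 14.2 TPM without. None of the 4 groups overlapped another, and all neighbours in the order TB+ IL-2, TB+ IL-2nil, TB IL-2, TB IL-2nil differed (adjusted P = 0.0482, 0.00299 and 0.00358, limma). Unlike *Foxo1*, every library restimulated with PMA/I was thus below every library that was not.

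Of the genes that act at PI3K itself, *Pik3ip1* encodes a transmembrane protein that binds the p110 catalytic subunit and lowers its activity, and is known as a brake on T cell activation. It lies on chromosome 11 from 3230404 to 3242974 (plus strand). The TB IL-2 libraries had 20.4, 6.24 and 13.6 TPM, and the TB IL-2nil libraries had 112, 121.4 and 155.4 TPM. With PMA/I the values were 0.891, 1.85 and 1.51 TPM with IL-2 and 5.44, 2.62 and 16.3 TPM without. All TB IL-2nil libraries were at 112 TPM or more and all others at 20.4 or less, while the 3 TB+ IL-2nil libraries were spread widely and overlapped TB IL-2.

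*Pik3r1* encodes p85α, the regulatory subunit that stabilises and holds back p110, on chromosome 13 from 102450716 to 102538172 (minus strand). Its values were 41.0, 37.3 and 37.3 TPM in TB IL-2 and 89.9, 96.5 and 59.6 TPM in TB IL-2nil. They were 9.72, 10.4 and 15.9 TPM in TB+ IL-2 and 10.5, 9.57 and 21.6 TPM in TB+ IL-2nil. Both PMA/I groups lay below both other groups and overlapped each other.

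*Inpp4b* encodes a phosphatase that removes a phosphate from the PI3K product PI(3,4)P2, on chromosome 8 from 83866455 to 84648935 (plus strand). It was the most abundant of the 9 transcripts by group mean in all groups but TB+ IL-2nil. It was at 202.9, 265.2 and 145.0 TPM in TB IL-2 and at 284.5, 280.6 and 258.1 TPM in TB IL-2nil. In TB+ IL-2 it was at 156.4, 161.5 and 113.3 TPM, and in TB+ IL-2nil at 114.0, 89.5 and 122.7 TPM. No neighbours in its order of groups differed beyond the spread, and its lowest group was TB+ IL-2nil. *Foxo1*, *Pik3ip1*, *Pik3r1* and *Inpp4b* overlap genes on the other strand in this annotation, and whether the counting used strand is not given in the sources used here.

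Of the genes that act ahead of mTORC1, *Sesn1* encodes sestrin 1, which binds GATOR2 and so limits mTORC1 when leucine is scarce, on chromosome 10 from 41530380 to 41628230 (plus strand). It was at 17.8, 13.4 and 22.5 TPM in TB IL-2 and at 64.6, 98.5 and 61.4 TPM in TB IL-2nil. In TB+ IL-2 it was at 8.78, 7.32 and 7.08 TPM and in TB+ IL-2nil at 14.3, 12 and 11.9 TPM. TB IL-2nil stood clear above the other groups, and TB+ IL-2nil overlapped TB IL-2.

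*Sesn3*, on chromosome 9 from 14080745 to 14130582 (plus strand), encodes a sestrin that FOXO factors are known to induce. The TB IL-2 libraries had 79.6, 44.1 and 34.5 TPM and the TB IL-2nil libraries 150.8, 172.7 and 95.7 TPM. The TB+ IL-2 libraries had 36.5, 24.0 and 30.4 TPM and the TB+ IL-2nil libraries 58.5, 38.2 and 75.3 TPM. TB IL-2nil again did not overlap any other group, while TB IL-2 overlapped both PMA/I groups.

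*Ddit4*, on chromosome 10 from 59412423 to 59414518 (minus strand), encodes REDD1, a stress-induced protein that restores the TSC complex. It was at 60.8, 55.0 and 39.5 TPM in TB IL-2 and at 37.9, 39.1 and 34.5 TPM in TB IL-2nil. After PMA/I it was at 8.3, 43.9 and 13.3 TPM with IL-2, and at 3.63, 6.29 and 9.56 TPM without. TB+ IL-2 replicate 2 stood apart at 43.9 TPM, within the range of the groups without PMA/I. No neighbours in the order TB+ IL-2nil, TB+ IL-2, TB IL-2nil, TB IL-2 differed beyond the spread. *Ddit4* is the one gene of the 9 with a higher mean in TB IL-2 than in TB IL-2nil.

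*Tsc1*, on chromosome 2 from 28496748 to 28546687 (plus strand), encodes the subunit that stabilises TSC2. It had the narrowest range, with 10.4, 6.55 and 7.36 TPM in TB IL-2 and 16.2, 13.9 and 13.9 TPM in TB IL-2nil. The TB+ IL-2 libraries had 8.43, 6.49 and 6.69 TPM and the TB+ IL-2nil libraries 12, 7.3 and 11.6 TPM. TB IL-2nil did not overlap any other group, and no neighbours in the order TB+ IL-2, TB IL-2, TB+ IL-2nil, TB IL-2nil differed beyond the spread.

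The second question was what IL-2 withdrawal did without restimulation. In TB IL-2nil compared to TB IL-2, 6 of the 9 genes rose and 0 fell, with 22.3% of all 12442 genes higher and 17.3% lower (limma, adjusted P under 0.05). *Pik3ip1* rose by 3.30 on the log2(TPM + 1) scale (standard error, SE, 0.51, adjusted P = 0.000765). *Sesn1* rose by 2.00 (SE 0.22, adjusted P = 0.000133) and *Sesn3* by 1.44 (SE 0.35, adjusted P = 0.00772). Of the 9 genes, the largest changes were thus in a brake on PI3K and in the sestrin genes *Sesn1* and *Sesn3*. Without overlap, 6 of the 9 genes were higher in every TB IL-2nil library than in every TB IL-2 library, against 30.4% of all genes.

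*Pik3r1* rose by 1.04 (SE 0.30, adjusted P = 0.0175), *Tsc1* by 0.80 (SE 0.21, adjusted P = 0.013) and *Foxo3* by 0.74 (SE 0.15, adjusted P = 0.00358). *Foxo1* differed by 0.66 (SE 0.30, adjusted P = 0.103) and *Inpp4b* by 0.46 (SE 0.23, adjusted P = 0.128), which did not exceed the spread. *Ddit4* differed by -0.45 (SE 0.48, adjusted P = 0.488), although its groups did not overlap, with TB IL-2nil the lower, as were 22.8% of all genes. The median difference of the 9 genes was 0.80, and that of all genes 0.13. With both doubted libraries left out, the count was again 6 (17.7% of all genes higher) and the differences of these 6 genes were 3.16, 2.13, 1.68, 1.25, 0.83 and 0.67 in the order given. With the labels as deposited, 0 of the 9 passed (0.121% of all genes) and 0 had an unadjusted P under 0.05 (1434 of all 12442 genes).

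Some of these calls rest on single libraries or on the scaling between libraries. *Pik3r1* missed the threshold without TB IL-2 replicate 2 (1.02, adjusted P = 0.0517), TB IL-2 replicate 3 (1.02, adjusted P = 0.0521), TB IL-2nil replicate 1 (0.96, adjusted P = 0.0569) or TB IL-2nil replicate 2 (0.91, adjusted P = 0.0633). *Tsc1* missed it without TB IL-2 replicate 2 (0.68, adjusted P = 0.0548). *Foxo1* passed it without TB IL-2nil replicate 1 (0.94, adjusted P = 0.0337) and *Inpp4b* without TB IL-2 replicate 2 (0.67, adjusted P = 0.0468). Without scaling, *Foxo3* (0.82, adjusted P = 0.0582), *Pik3r1* (1.12, adjusted P = 0.0681) and *Tsc1* (0.87, adjusted P = 0.0856) missed it, and after quantile normalization *Foxo1* (0.79, adjusted P = 0.0475) and *Inpp4b* (0.72, adjusted P = 0.0332) passed. The CD4 T cell and B cell marker sums given above were higher in every TB IL-2nil library than in every TB IL-2 library.

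**Figure D2:**
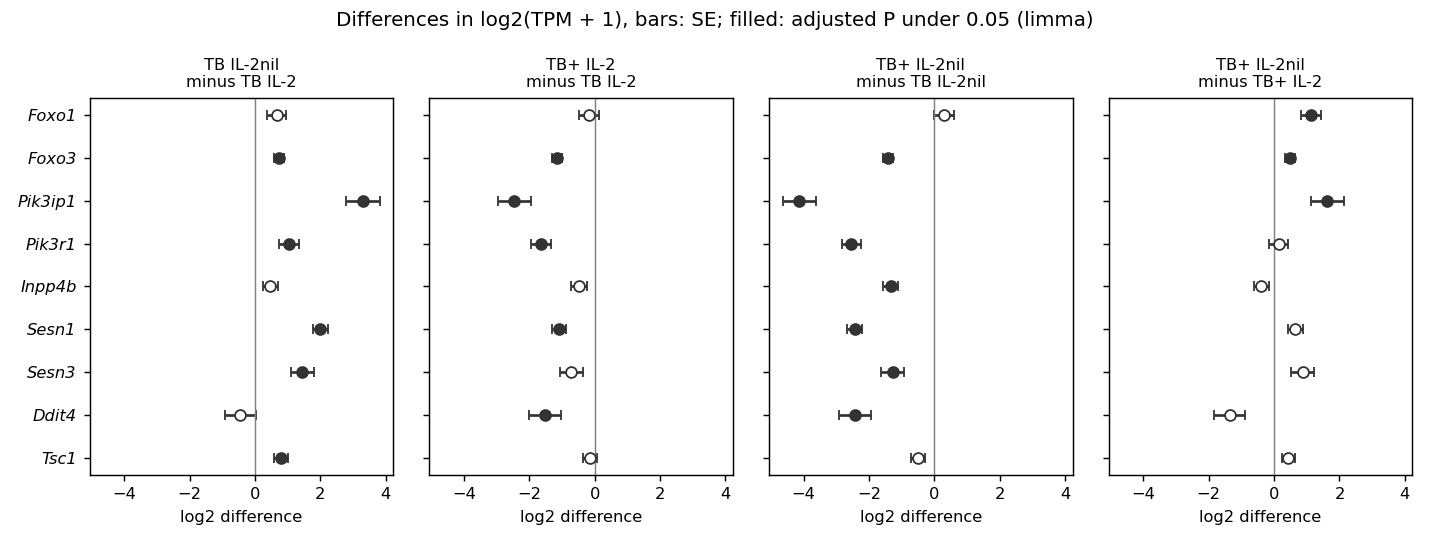
Difference of each gene in log2(TPM + 1) (x axis) in the 4 comparisons, 1 panel each, with the SE as a bar and filled circles where the adjusted P of limma was under 0.05. In the left panel 6 circles are filled and above 0, and in the third panel 7 are filled and below 0, with *Pik3ip1* at 3.30 and -4.13.

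The third question was how PMA/I changed the genes in cells kept in IL-2. In TB+ IL-2 compared to TB IL-2, 5 of the 9 genes fell and 0 rose, against 23.3% of all genes lower and 11.8% higher. *Pik3ip1* fell by 2.46 (SE 0.51, adjusted P = 0.00388), *Pik3r1* by 1.64 (SE 0.30, adjusted P = 0.00183) and *Foxo3* by 1.15 (SE 0.15, adjusted P = 0.000281). *Sesn1* fell by 1.09 (SE 0.22, adjusted P = 0.00346). All 4 were lower in every TB+ IL-2 library than in every TB IL-2 library, which was so for 35.1% of all genes.

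*Ddit4* fell by 1.52 (SE 0.48, adjusted P = 0.0316), and this call is less firm, since its groups overlapped. With both doubted libraries left out its difference was -1.34 (adjusted P = 0.114), and the count of genes that fell was 4, with 19.7% of all genes lower. *Ddit4* also missed the threshold without TB IL-2 replicate 1 (-1.39, adjusted P = 0.0956), TB IL-2 replicate 2 (-1.46, adjusted P = 0.0758), TB+ IL-2 replicate 1 (-1.03, adjusted P = 0.121) or TB+ IL-2 replicate 3 (-1.34, adjusted P = 0.0895), or without a filter on low values (-1.37, adjusted P = 0.0899), and its difference was -2.17 without TB+ IL-2 replicate 2. *Sesn3* differed by -0.71 (SE 0.35, adjusted P = 0.134), *Inpp4b* by -0.48 (SE 0.23, adjusted P = 0.128), *Foxo1* by -0.17 (SE 0.30, adjusted P = 0.702) and *Tsc1* by -0.14 (SE 0.21, adjusted P = 0.655). *Inpp4b* passed without TB IL-2 replicate 3 (-0.70, adjusted P = 0.0374) and after quantile normalization (-0.73, adjusted P = 0.0403). The sign for *Foxo1* turned without TB+ IL-2 replicate 2 (0.05), and that for *Tsc1* turned without TB IL-2 replicate 1 (0.04) and after quantile normalization (0.23). The median of the 9 genes was -1.09, and that of all genes -0.22. As labelled, 0 of the 9 passed (0.498% of all genes) and 0 had an unadjusted P under 0.05 (1739 of all 12442 genes).

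The fourth question was how PMA/I changed them after IL-2 had been withdrawn. In TB+ IL-2nil compared to TB IL-2nil, 7 of the 9 genes fell and 0 rose, with 41.1% of all genes lower and 20.1% higher. *Pik3ip1* fell by 4.13 (SE 0.51, adjusted P = 5.17e-05), *Pik3r1* by 2.54 (SE 0.30, adjusted P = 3.57e-05) and *Sesn1* by 2.44 (SE 0.22, adjusted P = 7.83e-06). *Ddit4* fell by 2.43 (SE 0.48, adjusted P = 0.00122). The brakes on PI3K and those ahead of mTORC1 were thus both represented, and 8 of the 9 genes were lower in every TB+ IL-2nil library, against 42.3% of all genes.

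*Foxo3* fell by 1.42 (SE 0.15, adjusted P = 2.1e-05), *Inpp4b* by 1.34 (SE 0.23, adjusted P = 0.000447) and *Sesn3* by 1.28 (SE 0.35, adjusted P = 0.00766). *Tsc1* differed by -0.50 (SE 0.21, adjusted P = 0.0647), and by the same value with an adjusted P = 0.0136 once the replicate number was a block, which made the count 8. It also passed without TB IL-2 replicate 1 (-0.50, adjusted P = 0.0484) or TB+ IL-2nil replicate 1 (-0.61, adjusted P = 0.0498), and without scaling (adjusted P = 0.023) or with a pseudocount of 5 (-0.37, adjusted P = 0.0499). *Foxo1* differed by 0.30 (SE 0.30, adjusted P = 0.4), with a sign that turned without scaling between libraries (-0.25) and after quantile normalization (-0.09). The median of the 9 genes was -1.42, and that of all genes -0.38. With both doubted libraries left out, 7 fell again (35.6% of all genes lower). As labelled, 0 of the 9 passed (5.38% of all genes). An unadjusted P under 0.05 was found for 3 of the 9, and for 4017 of all 12442 genes.

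The TB IL-2nil libraries enter both this comparison and that of IL-2 withdrawal. Set against TB IL-2 instead, TB+ IL-2nil was lower for *Pik3r1* by 1.50 (SE 0.30, adjusted P = 0.00137), for *Foxo3* by 0.68 (SE 0.15, adjusted P = 0.00299), for *Inpp4b* by 0.87 (SE 0.23, adjusted P = 0.00706) and for *Ddit4* by 2.87 (SE 0.48, adjusted P = 0.000466), against 35.8% of all genes lower. *Foxo1* was higher by 0.96 (SE 0.30, adjusted P = 0.0176), against 20.9% of all genes higher. *Pik3ip1* (-0.83, adjusted P = 0.187), *Sesn1* (-0.44, adjusted P = 0.114), *Sesn3* (0.16, adjusted P = 0.724) and *Tsc1* (0.30, adjusted P = 0.246) did not differ beyond the spread. These groups hold neither doubted library, but the spread of the fit does: as labelled, *Ddit4* alone was called (adjusted P = 0.00658), while *Foxo1* (adjusted P = 0.104), *Foxo3* (0.416), *Pik3r1* (0.164) and *Inpp4b* (0.112) were not. With both libraries left out all 5 calls stood.

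**Figure D3:**
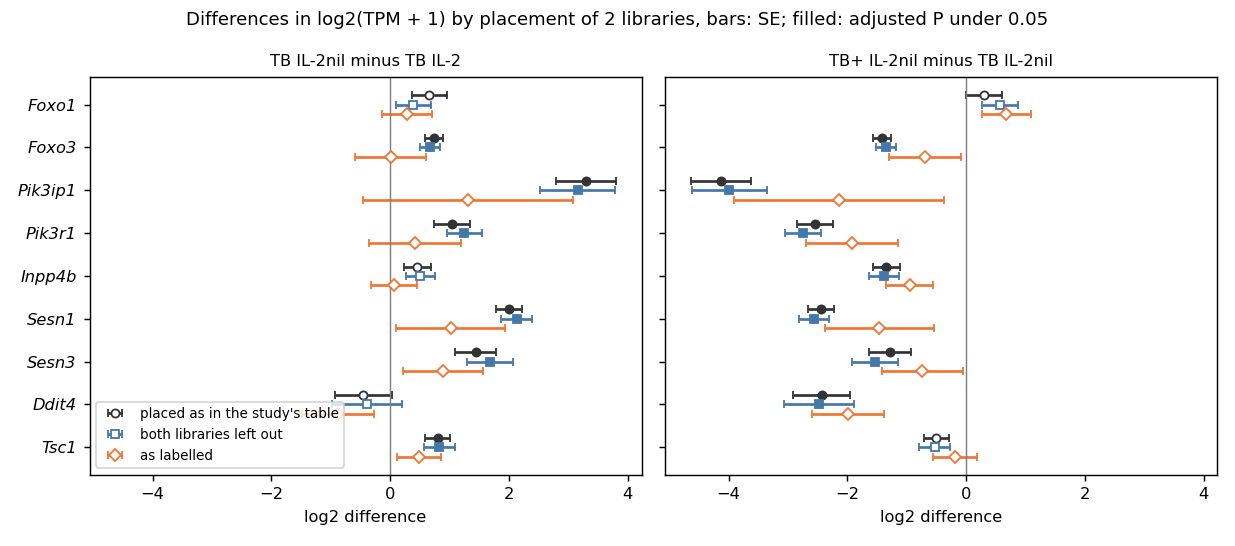
Difference of each gene in log2(TPM + 1) (x axis, bars are SE) for IL-2 withdrawal (left) and for PMA/I after withdrawal (right) with the 2 doubted libraries placed by the supplementary table (circles), left out (squares) or as labelled (diamonds), filled where the adjusted P was under 0.05. Circles and squares lie close together with 6 and 7 filled in the 2 panels, and no diamond is filled.

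The fifth question was what the absence of IL-2 did in restimulated cells. In TB+ IL-2nil compared to TB+ IL-2, 3 of the 9 genes rose and 0 fell, against 8.4% of all genes higher and 12.9% lower. *Pik3ip1* rose by 1.63 (SE 0.51, adjusted P = 0.0432), *Foxo1* by 1.13 (SE 0.30, adjusted P = 0.0227) and *Foxo3* by 0.48 (SE 0.15, adjusted P = 0.0482). *Sesn3* differed by 0.87 (SE 0.35, adjusted P = 0.0984), *Sesn1* by 0.65 (SE 0.22, adjusted P = 0.0582), *Tsc1* by 0.44 (SE 0.21, adjusted P = 0.169), *Pik3r1* by 0.14 (SE 0.30, adjusted P = 0.779), *Inpp4b* by -0.39 (SE 0.23, adjusted P = 0.247) and *Ddit4* by -1.36 (SE 0.48, adjusted P = 0.0687). *Foxo1*, *Foxo3*, *Pik3ip1*, *Sesn1* and *Sesn3* were higher in every TB+ IL-2nil library, against 18.3% of all genes.

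These calls lie near the threshold. With the replicate number as a block, *Ddit4* fell (adjusted P = 0.0448) and *Tsc1* rose (adjusted P = 0.0447), which made the count 5. With both doubted libraries left out, *Foxo1* alone passed (1.24, adjusted P = 0.0364), with 2.68% of all genes higher, while *Pik3ip1* differed by 1.67 (adjusted P = 0.13) and *Foxo3* by 0.40 (adjusted P = 0.173). Leaving out 1 library gave counts of 0 to 4, with 0 without TB+ IL-2 replicate 2, TB+ IL-2nil replicate 1 or TB+ IL-2nil replicate 3. Without TB+ IL-2nil replicate 3, the difference of *Pik3ip1* was 1.02 (adjusted P = 0.116). Without scaling between libraries, *Foxo3* differed by 0.11 (adjusted P = 0.885), *Foxo1* by 0.74 (adjusted P = 0.175) and *Pik3ip1* by 1.32 (adjusted P = 0.172), while *Ddit4* fell by 1.66 (adjusted P = 0.0488). *Pik3ip1* also missed the threshold with a pseudocount of 5 (0.90, adjusted P = 0.107) or no filter (1.66, adjusted P = 0.0703), and *Foxo3* with a pseudocount of 0.1 (0.51, adjusted P = 0.0503). The sign for *Pik3r1* turned without TB+ IL-2nil replicate 3 (-0.21) and without scaling (-0.22). As labelled, 0 of the 9 passed (0.217% of all genes), and the differences of *Foxo3* (-0.25) and *Pik3ip1* (-0.35) were below 0. With these labels 1 of the 9 had an unadjusted P under 0.05, as did 2178 of all 12442 genes.

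Whether PMA/I changed a gene differently after withdrawal was tested by the interaction, which is the response to PMA/I without IL-2 minus the response with IL-2. *Sesn1* alone of the 9 genes passed, with a fall that was larger without IL-2 by 1.35 (SE 0.31, adjusted P = 0.0396), against 1.57% of all genes with a lower and 2.66% with a higher response. The values of the others were -1.67 (SE 0.72, adjusted P = 0.198) for *Pik3ip1*, -0.90 (SE 0.42, adjusted P = 0.23) for *Pik3r1*, -0.86 (SE 0.32, adjusted P = 0.146) for *Inpp4b* and -0.91 (SE 0.68, adjusted P = 0.455) for *Ddit4*. For *Sesn3* (-0.57, adjusted P = 0.516), *Tsc1* (-0.36, adjusted P = 0.513), *Foxo3* (-0.26, adjusted P = 0.5) and *Foxo1* (0.47, adjusted P = 0.54) the difference of the responses was also not beyond the spread. The value for *Foxo1* came to -0.00 without scaling between libraries. The median was -0.86 for the 9 genes and -0.16 for all genes.

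The call of *Sesn1* was lost with both doubted libraries left out (-1.53, adjusted P = 0.0944, with 0.0241% of all genes lower) and when any 1 library but TB+ IL-2nil replicate 3 was left out, with adjusted P values from 0.0503 to 0.0967 and differences from -1.52 to -1.14. Without TB+ IL-2nil replicate 3, *Pik3ip1* (-2.28, adjusted P = 0.035) and *Pik3r1* (-1.24, adjusted P = 0.0427) passed as well, and *Pik3ip1* did so with a pseudocount of 5 (-2.04, adjusted P = 0.043). The call of *Sesn1* was also lost with a pseudocount of 0.1 (adjusted P = 0.0676), without a filter (adjusted P = 0.0573) and without scaling (-1.79, adjusted P = 0.148). As labelled, 0 of the 9 passed (0% of all genes) and 0 had an unadjusted P under 0.05 (413 of all 12442 genes).

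The third sestrin fell on withdrawal and rose on PMA/I. *Sesn2*, known as a target of the amino acid and stress response factor ATF4, was at 13.1, 11.1 and 10.4 TPM in TB IL-2 and at 6.89, 5.1 and 7.91 TPM in TB IL-2nil. In TB+ IL-2 it was at 106.9, 94.8 and 70.8 TPM and in TB+ IL-2nil at 59.4, 52.3 and 68.5 TPM. It fell on withdrawal by 0.73 (SE 0.20, adjusted P = 0.0149) and rose on PMA/I by 2.86 (SE 0.20, adjusted P = 3.64e-06) with IL-2 and by 3.01 (SE 0.20, adjusted P = 1.28e-06) without. The groups with and without PMA/I did not overlap. These differences were -0.85 (adjusted P = 0.0125), 3.02 (adjusted P = 2.59e-05) and 3.13 (adjusted P = 1.44e-05) with both doubted libraries left out. As labelled none passed, and the sign on withdrawal turned (0.27, adjusted P = 0.953), with 1.85 (adjusted P = 0.453) and 2.01 (adjusted P = 0.192) on PMA/I.

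**Figure D4:**
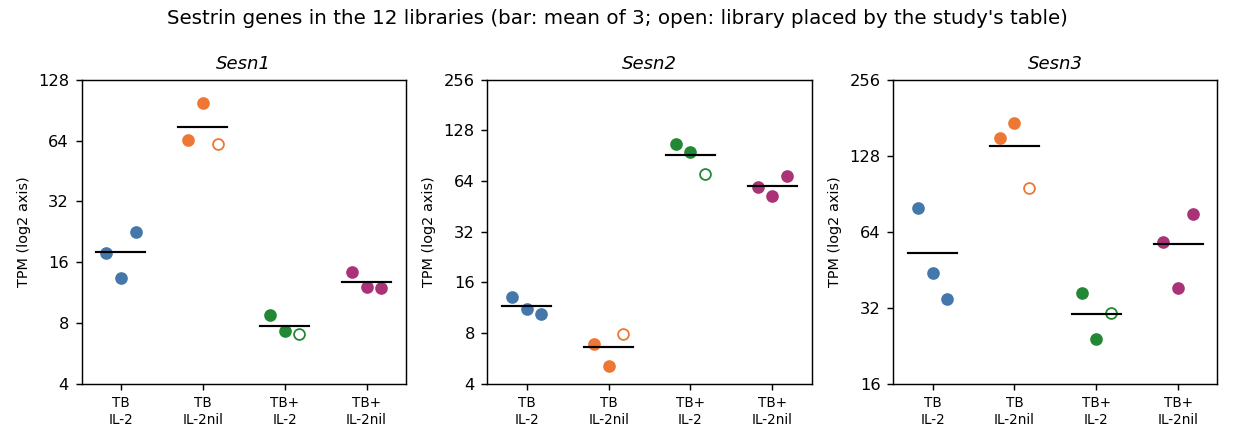
Level of *Sesn1*, *Sesn2* and *Sesn3* in TPM (log2 axis) in the 12 libraries, drawn as in the plot of the 9 genes. *Sesn1* and *Sesn3* are highest in TB IL-2nil, while *Sesn2* is lowest there and lies above 50 TPM in all 6 libraries with PMA/I.

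Genes of the AKT and FOXO families also changed on withdrawal. *Akt1*, which encodes a kinase that phosphorylates FOXO factors, fell by 0.86 (SE 0.19, adjusted P = 0.00434), from 118.7 to 141.8 TPM in TB IL-2 to 66.7 to 77.2 TPM in TB IL-2nil. *Foxo4*, the one other FOXO gene above the filter, rose by 1.33 (SE 0.25, adjusted P = 0.00194), from 8.61 to 13.6 TPM to 26.0 to 29.7 TPM. On PMA/I after withdrawal *Foxo4* fell by 1.41 (adjusted P = 0.000526), and *Akt1* differed by -0.04 (adjusted P = 0.865). Both calls on withdrawal stood with both doubted libraries left out (adjusted P = 0.0223 for *Akt1* and 0.00939 for *Foxo4*). As labelled, the differences were -0.64 (adjusted P = 0.438) and 0.78 (adjusted P = 0.66).

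Of 65 other genes of the pathway above the filter, from 69 listed, 14 rose and 7 fell in TB IL-2nil compared to TB IL-2, with a median difference of 0.07 beside the 0.13 of all genes. These are 21.5% and 10.8% of the 65, against 22.3% of all genes higher and 17.3% lower, so the share that rose was near that of all genes and the share that fell below it. Leaving out both doubted libraries, 12 rose and 6 fell. Among phosphatases that oppose PI3K or AKT, 3 of 8 rose, namely *Inpp4a* by 1.61, *Inpp5k* by 1.21 and *Phlpp1* by 1.21. Of the mTOR complex subunits, *Rictor* of mTORC2 (1.21) and *Rptor* of mTORC1 (0.74) rose, of 8 measured. *Tbc1d7*, which encodes the small subunit of the TSC complex, fell by 1.02 and *Rheb*, its target, fell by 0.81. Of 23 genes of amino acid sensing 5 rose (21.7%) and 4 fell (17.4%), near the shares of all genes, with folliculin (*Flcn*) up by 1.47 and its partner *Fnip2* down by 1.65. Of 8 PI3K subunits and adaptors, *Pik3ca* alone passed, with a rise of 0.81. *Ulk1*, the autophagy kinase that mTORC1 inhibits, rose by 1.35, and the other 6 substrates and related genes did not pass.

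On PMA/I after withdrawal, 37 of the 65 genes fell (56.9%, against 41.1% of all genes) and 13 rose (20%, against 20.1%), with a median of -0.72 beside -0.38. With IL-2, 27 fell (41.5%, against 23.3%) and 9 rose (13.8%, against 11.8%), with a median of -0.49 beside -0.22. The counts were 35 and 10 without IL-2 and 22 and 8 with it once both doubted libraries were left out. *Pik3cg* fell by 2.91 and *Pik3cd*, the p110δ subunit of lymphocytes, by 2.41 without IL-2, and by 2.18 and 1.73 with it. *Tfeb*, a lysosome factor that mTORC1 keeps in the cytoplasm, fell by 2.75 and 2.23. *Rheb* rose by 2.83 and 1.56, *Fnip1* by 2.86 and 2.72, and *Sgk1*, an AKT-related kinase, by 1.24 and 0.93. With the labels as deposited, the 65 genes had 0 calls on withdrawal, 0 on PMA/I with IL-2 and 2 lower calls on PMA/I without it.

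A list of 16 genes known as FOXO targets was counted in the same fit. On withdrawal 14 rose (87.5%, against 22.3% of all genes) and 0 fell (against 17.3%), with a median of 1.75 beside the 0.13 of all genes. *Il7r*, the IL-7 receptor chain of resting T cells, rose by 3.54, the antiproliferative gene *Btg1* by 2.72, the ubiquitin ligase gene *Fbxo32* by 2.51 and the repressor gene *Bcl6* by 2.24. *Sod2* (-0.14, adjusted P = 0.581) and *Cat* (0.01, adjusted P = 0.993), which encode antioxidant enzymes, did not pass. With both doubted libraries left out 12 rose, and with the labels as deposited 2 did. On PMA/I after withdrawal 10 fell (62.5%, against 41.1% of all genes) and 2 rose (12.5%, against 20.1%), with a median of -1.83 beside -0.38, led by the homing receptor gene *S1pr1* (-5.24), the cell cycle inhibitor gene *Cdkn1b* (-4.26), *Ccng2* (-4.08) and the chemokine receptor gene *Ccr7* (-3.86). On PMA/I with IL-2, 6 fell (37.5%, against 23.3%) and 2 rose (12.5%, against 11.8%). The counts on PMA/I were the same with both doubted libraries left out, and as labelled 1 fell and 2 rose without IL-2 and 0 fell and 2 rose with it. The 2 that rose in both were *Bcl2l11*, which encodes the death factor BIM, by 1.25 without and 1.72 with IL-2, and *Btg1* by 0.99 and 2.61.

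**Figure D5:**
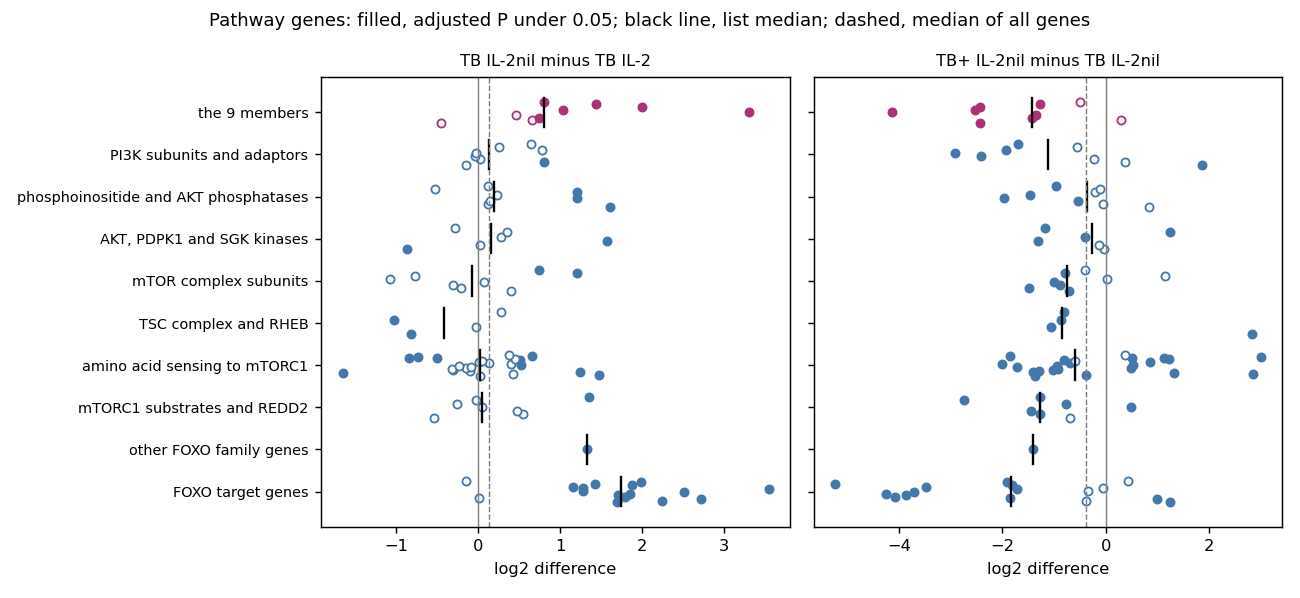
Differences in log2(TPM + 1) (x axis) of the 9 genes and of 9 other lists of the pathway on IL-2 withdrawal (left) and on PMA/I after withdrawal (right), with 1 circle a gene (filled where the adjusted P of limma was under 0.05), the list median as a black line and the median of all genes as a dashed line. The FOXO target list lies farthest from the dashed line on both sides, with medians of 1.75 and -1.83, and most other lists have genes on both sides of 0.

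For the 4 of the 9 genes called with a change of more than 3-fold in at least 1 of the first 4 comparisons, the genes with the most similar profile were found as the smallest root mean square distance between centred log2(TPM + 1) profiles over the 12 libraries, which share groups, depth and library preparation. For *Pik3ip1* these were *Klhl24* (0.59), *Pcmtd2* (0.60) and *Vipr1* (0.67), for *Sesn1* they were *A430088P11Rik* (0.31), *Vamp1* (0.32) and *Hsdl1* (0.32). For *Pik3r1* they were *Pced1b* (0.12), *Ppp1r21* (0.18) and *Tbc1d22b* (0.19), and for *Ddit4* they were *Trim35* (0.38), *Slfn3* (0.44) and *Eri2* (0.49). None of the 12 is another of the 9 genes. The median distance of all genes from the 4 profiles was 2.12, 1.15, 1.11 and 1.21 in the same order of naming.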

How the data were processed

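RNA-Seq libraries were depleted of rRNA and made with a directional kit. The authors used Trimmomatic 0.32 for trimming, HISAT2 2.1.0 for alignment (mm9) and StringTie 1.3.3 on RefSeq models, as given in the methods and the submitters' processing notes, and deposited FPKM values, with no counts and no normalization between libraries. The methods name TPM. FPKM values summed to 193815.5 to 420486.8 per library, so each library was rescaled here to TPM, genes that reached more than 1 TPM in any library entered, and the 75th percentiles were equalised. log2(TPM + 1) values were modelled by group (4 groups, without a block) in R 4.3.3 with limma 3.58.1, with 8 residual degrees of freedom, with Benjamini-Hochberg adjustment over all 12442 genes. A gene was called at an adjusted P under 0.05. Log2 differences on this scale understate changes of low genes. The fit was tested on simulated data.

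The 9 genes, the gene lists and the tests were chosen with earlier results of these data known. Other genes named are the up to 4 called genes of a list with the largest difference in each direction, the nearest profiles, *Il2* and markers, and, chosen after their values were seen, *Sod2* and *Cat*. Some items of the lists are not reported here. A pair of listed symbols were matched through RefSeq synonyms. The placement of 2 libraries followed the study's supplementary table. Placed so, all 18 pairs of libraries with the same replicate number deviated together from their group means (r from 0.101 to 0.531). Some pairs with different numbers did so too, such as TB IL-2 replicate 2 with TB+ IL-2 replicate 3 (r = 0.171). The main fit ignores any such pairing, and the fit with a replicate block is given as an alternative. The replicate numbers come from the labels, which do not say what they share. Relative depth was estimated from the steps between low values and is not a read count, so no counting interval is given. Alternatives were the labels as deposited, both libraries left out, other pseudocounts, filters and scalings, an intensity trend, a replicate block and leaving out each library. Promoters are from RefSeq (GRCm38.p6) and positions from GENCODE M1 (mm9). Protein sequences were not analysed here. Python 3.11.15, numpy 2.4.6, pandas 2.3.3 and matplotlib 3.10.9 were used.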

Additional observations from a re-analysis of the deposited data

Results flagged for a closer look

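For 4 genes of the pathway and of the 9, the response to PMA/I differed between cells with and without IL-2 by the interaction test. They are 4.44% of the 90 genes tested, beside 4.23% of all genes, so the count is at the level of all genes. *Sesn1* fell more without IL-2, with a difference of -1.35 (adjusted P = 0.0396, limma). *Fbxo32* fell by 3.72 without and by 1.32 with IL-2, a difference of -2.41 (adjusted P = 0.0116). *Btg1* rose by 0.99 without and by 2.61 with IL-2, a difference of -1.62 (adjusted P = 0.0265). *Rheb* rose by 2.83 without and by 1.56 with IL-2, a difference of 1.27 (adjusted P = 0.0426). With both doubted libraries left out the adjusted P values were 0.0944, 0.061, 0.08 and 0.159 in this order, and with the labels as deposited all 4 were 0.914.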

How the results depend on the processing

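Of 45 values (9 genes in 5 comparisons), 41 kept their direction and their side of the threshold with both doubted libraries left out, 45 with an intensity trend, 45 with a filter of 1 TPM in at least 3 libraries, 42 without a filter, 43 and 42 with a pseudocount of 0.1 and 5, 40 after quantile normalization and 33 without scaling. As labelled the number called was 0 in all 5 comparisons (6, 5, 7, 3 and 1 as placed), and likewise 0 in all 5 with those labels and a replicate block, an alternative added after the data were seen. The sign turned with these labels, with or without the block, for *Foxo1* (0.21) and *Tsc1* (0.18) in TB+ IL-2 minus TB IL-2 and for *Foxo3* (-0.25), *Pik3ip1* (-0.35), *Pik3r1* (-0.47) and *Sesn1* (-0.33) in TB+ IL-2nil minus TB+ IL-2. Without scaling 3 genes were called on withdrawal, 1 in TB+ IL-2nil minus TB+ IL-2 and 0 for the interaction. Without scaling the median of all genes moved from -0.38 to -0.78 for PMA/I after withdrawal, from 0.04 to -0.23 in TB+ IL-2nil minus TB+ IL-2 and from -0.16 to -0.51 for the interaction, and in these comparisons *Foxo1* differed by -0.25, *Pik3r1* by -0.22 and *Foxo1* by -0.00. After quantile normalization *Tsc1* differed by 0.23 in TB+ IL-2 minus TB IL-2 and *Foxo1* by -0.09 for PMA/I after withdrawal. With both libraries left out, 1 gene was called in TB+ IL-2nil minus TB+ IL-2 and 0 for the interaction. The interaction count was also 0 with a pseudocount of 0.1 and without a filter, and 2 with a pseudocount of 5. Leaving out 1 library gave 5 to 6, 4 to 6, 7 to 8, 0 to 4 and 0 to 3 called genes in the 5 comparisons, and gave differences from -0.26 to 0.04 for *Tsc1* and from -0.28 to 0.05 for *Foxo1* in TB+ IL-2 minus TB IL-2 and from -0.21 to 0.34 for *Pik3r1* in TB+ IL-2nil minus TB+ IL-2. The causes were not tested.

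With the replicate block the number called in TB+ IL-2nil minus TB+ IL-2 was 5, and the block changed no other call of the 9 genes than those of *Tsc1* and *Ddit4* given above. Without read counts, the depth behind a low value such as *Pik3ip1* in TB+ IL-2 is unknown.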
